A study of Canis lupus familiaris with 51 samples.

Results

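Neutered and intact Golden Retrievers were compared in their spleen tumours. The tumours were chosen by 3 labels, tissue spleen, breed Golden Retriever and the gender label with neuter status, which gave 20 of the 51 canine tumours of the series, all labelled as hemangiosarcoma. The neutered group held 11 tumours, 7 from spayed females (label FS) and 4 from castrated males (label MN). The intact group held 9 tumours, 3 from females (label F) and 6 from males (label M). Age at diagnosis was 10.1 ± 2.41 years in the neutered and 9.86 ± 2.8 years in the intact dogs (SD). All groups shared the breed, the organ and the diagnosis, and every sample was tumour tissue with no normal spleen beside it. The age at which a dog was neutered is not in the labels. Within each group tumours are numbered in the order of the samples (neutered 1 to 11, intact 1 to 9), and whether each is another dog is not in the labels. The p-values therefore refer to the spread among these samples, which may be partly technical.

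Hemangiosarcoma is a malignant tumour of cells related to the lining of blood vessels, and in dogs the spleen is a common site and the Golden Retriever a commonly affected breed. Neutering removes the ovaries or the testes, the main source of oestrogen, progesterone and testosterone. These hormones act through receptors that are themselves transcription factors, so their loss can change transcript levels in tissues that carry the receptors. Removal of the gonads also ends their negative feedback on the pituitary, and luteinising and follicle-stimulating hormone then stay high.

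Transcript levels were deposited as FPKM, which scales fragments to the length of the transcript and to the size of the library. Genes are listed by Ensembl identifier alone, and 0 of the 16382 matched the RefSeq table of assembly UU_Cfam_GSD_1.0. Receptors, hormone targets and markers of vessel, blood, immune and stromal cells could therefore not be looked up, and the labelled organ and sex were not checked against marker genes. Genes are given by identifier, 4 chosen by a rule and 1 because it was the single gene called in males, and otherwise as groups of genes that rise and fall together. In whole tumour tissue, fewer cells of a type and less RNA per cell cannot be told apart.

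The libraries of both groups were similar in the measures that could be taken. The median correlation of log2(FPKM + 1) was 0.869 between 2 neutered tumours, 0.885 between 2 intact tumours and 0.877 between 1 of each. The number of genes at 1 FPKM or more was 11269 ± 190 in neutered and 11113 ± 221 in intact tumours (SD, exact permutation p = 0.107). Relative depth, solved from the steps of low FPKM values, was 1.06 ± 0.216 and 1.01 ± 0.439 (SD), from 0.514 in intact 5 to 2.09 in intact 6. Of 10 such measures, the first 5 principal components among them, none differed by neuter status (exact permutation tests, two-sided, smallest adjusted p = 0.341). The closest was the second component, with 17.3% of the variance and p = 0.0606, on which intact 7 and intact 1 stood highest, at 107 and 68.7. Without the 4 tumours whose titles begin with CHAD the second component had p = 0.432, and the closest was the fifth, with a difference of 24.3 against 13.5 over all 20 tumours (exact permutation p = 0.00824, adjusted p = 0.0824).

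Neuter status over both sexes was tested first, with sex as a covariate because females made up 7 of 11 neutered and 3 of 9 intact tumours. No gene passed. limma called 0 of 12319 genes (0%) at an adjusted p under 0.05, with a smallest adjusted p of 0.981. The unadjusted p was under 0.05 for 408 genes (3.31%), of which neutered tumours were higher in 164 (1.33%) and lower in 244 (1.98%). For 0 genes (0%) did all 11 neutered tumours lie above or below all 9 intact tumours. Without intact 5 the number at an unadjusted p under 0.05 was 984, and without the sex covariate it was 716, with 0 called in both fits.

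The intervals show which differences the 20 tumours leave possible. The median difference over all genes was 0.01 on the log2(FPKM + 1) scale, and its median absolute size was 0.17. A 95% interval had a median half-width of 0.49, and for 9076 genes (73.7%) it lay wholly between -1 and 1. For low genes a difference of 1 on this scale is more than 2-fold in FPKM. An estimated difference of at least 1 was found for 259 genes (2.1%).

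The 2 higher and 2 lower genes with the smallest p, among those with a mean of at least 5 FPKM, are given here as values because none of them passed. They were picked by this same comparison, so a separation of their values adds no support. ENSCAFG00000018864 ran from 7.82 to 60.2 FPKM in neutered tumours (median 19.4). In intact tumours it ran from 0.87 to 27.2 (median 4.71). The groups overlapped through 3 intact tumours, the females intact 4 and intact 5, with 27.2 and 8.26 FPKM, and the male intact 8, with 20.6 FPKM. The log2 difference was 1.55 ± 0.464 (SE, limma p = 0.00335, adjusted p = 0.981), and it was 1.66 in females and 1.45 in males when each sex was estimated by itself.

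ENSCAFG00000004534 ran from 5.28 to 43.7 FPKM in neutered tumours (median 15.8) and from 0.235 to 18.3 in intact tumours (median 6.24). The 3 lowest values, 0.235, 0.921 and 1.44 FPKM, were all in intact tumours, and the 4 castrated males all lay at 12.8 FPKM or above. Its log2 difference was 1.62 ± 0.491 (SE, limma p = 0.00354, adjusted p = 0.981).

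ENSCAFG00000020276 is an abundant transcript, with 16 to 243 FPKM in neutered tumours (median 119) and 96.5 to 1422 FPKM in intact tumours (median 374). All 6 intact males stood above every neutered tumour, with 492, 606, 374, 1422, 387 and 319.7 FPKM in intact 1, 2, 3, 7, 8 and 9. The intact females had 333, 295 and 96.5 FPKM. The log2 difference was -1.98 ± 0.516 (SE, limma p = 0.00102, adjusted p = 0.981), -0.88 in females and -2.94 in males.

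ENSCAFG00000015798 had a narrow range in neutered tumours, 159 to 279.7 FPKM (median 209), and a wide one in intact tumours, 210.4 to 659 FPKM (median 402). The 4 castrated males lay between 166 and 208.6 FPKM, narrowly below the lowest of the 6 intact males, intact 8 with 210.4 FPKM. The spayed females overlapped the intact ones. The log2 difference was -0.78 ± 0.211 (SE, limma p = 0.00146, adjusted p = 0.981).

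**Figure D1:**
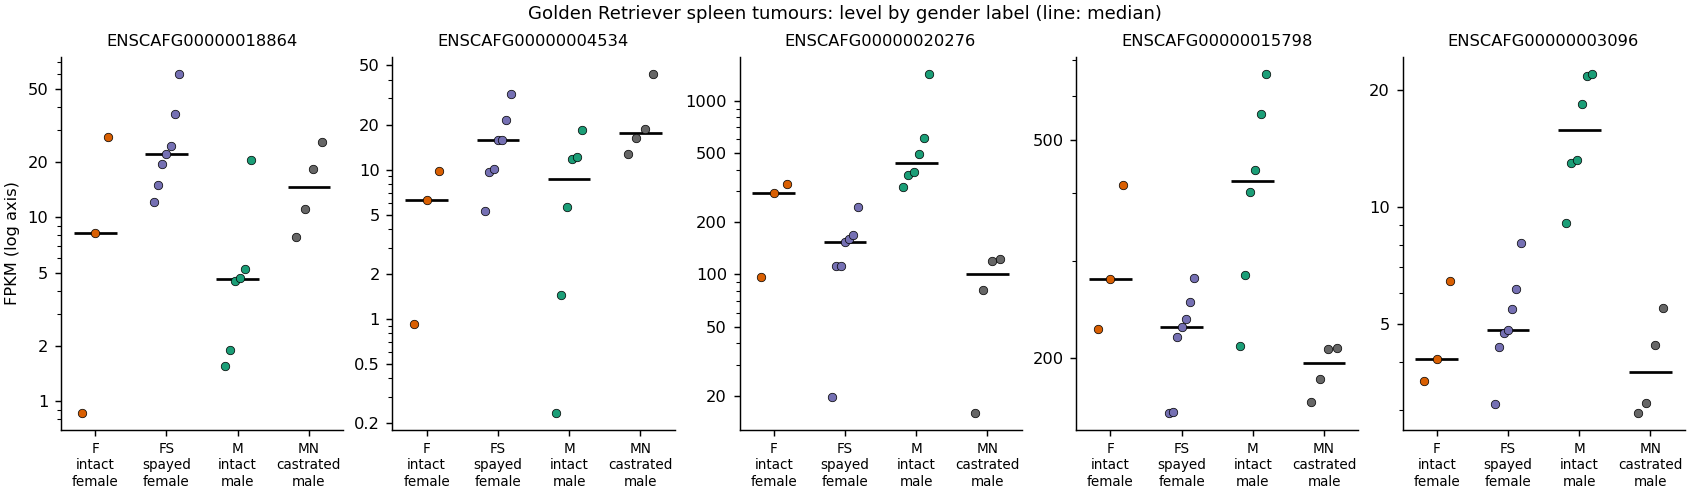
FPKM of 5 genes (log axes) in the 20 Golden Retriever spleen tumours by gender label. Each point is 1 tumour (3 F, 7 FS, 6 M, 4 MN) and each line a median, and for ENSCAFG00000003096 the 6 intact males, at 9.12 FPKM or more, lie above the 14 other tumours.

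Spaying and castration remove different organs, so each sex was estimated by itself in a fit of the 4 labels that shared 1 estimate of the spread. Between 4 castrated and 6 intact males, 1243 of 12319 genes (10.1%) had an unadjusted p under 0.05, 485 higher (3.94%) and 758 lower (6.15%) in castrated males, and limma called 1 gene (0.00812%). Between 7 spayed and 3 intact females, 212 genes (1.72%) had an unadjusted p under 0.05, 129 higher (1.05%) and 83 lower (0.674%) in spayed females, and limma called 0 (0%, smallest adjusted p = 0.999). The half-width of the 95% interval was alike, with a median of 0.67 in males and 0.72 in females. Without neutered 3, a castrated male, the male number was 795. The female number was 783 without intact 5, 321 without intact 4 and 322 without neutered 1, and 1 gene was called without intact 5. The female number was also 692 with array weights and 330 without a filter on low values.

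Whether the 2 differences differ from each other was tested by the neuter by sex interaction. limma called 0 of 12319 genes (0%, smallest adjusted p = 0.667), and for 867 genes (7.04%) the unadjusted p was under 0.05. The male difference lay above the female one for 385 of these (3.13%) and below it for 482 (3.91%). In the fit without intact 5 limma called 1 gene, and without intact 6 there were 560 genes at an unadjusted p under 0.05. The 95% interval of this term had a median half-width of 0.98 and lay between -1 and 1 for 24.4% of genes. No gene can thus be said to respond to neutering in 1 sex alone.

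**Figure D2:**
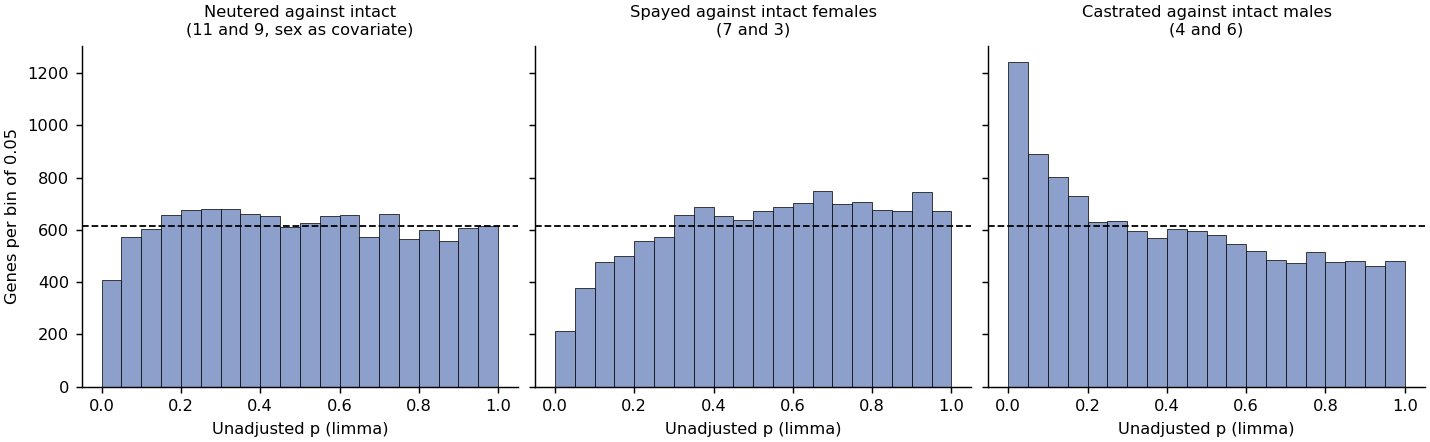
Unadjusted limma p-values of 12319 genes in 20 bins, for the comparison over both sexes, for females and for males; the dashed line is the level of equal bins. The lowest bin holds 408, 212 and 1243 genes.

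The gene called in males was ENSCAFG00000003096. It had 13, 18.4, 9.12, 22, 21.7 and 13.2 FPKM in the intact males (intact 1, 2, 3, 7, 8 and 9) and 4.42, 2.96, 3.14 and 5.51 FPKM in the castrated males (neutered 2, 3, 5 and 10). It was thus lower in the castrated than in the intact males, by 1.75 ± 0.264 on the log2 scale (SE, limma adjusted p = 0.0301). The 2 groups did not overlap, but the gene was picked by this same contrast, so that adds no support. The 3 intact females, at 3.57 to 6.44 FPKM, and the 7 spayed females, at 3.11 to 8.09 FPKM, lay at the level of the castrated males. Their difference was 0.13 with a 95% interval of -0.46 to 0.72. The interaction was -1.88 ± 0.387 (SE, limma p = 0.000108), which did not pass over all genes (adjusted p = 0.667).

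High ENSCAFG00000003096 thus marked the 6 intact males among the 20 tumours. The same arrangement, all 6 intact males above all 14 other tumours, was found for 6 of 12319 genes (0.0487%), this one included, and the reverse for 0 genes (0%). The call was near its threshold. It was kept in 6 of 20 fits that left out 1 tumour, those without intact 3, 4 or 5 and without neutered 4, 7 or 10, while the adjusted p in the 20 fits ran from 0.00864 to 0.28 and the difference from -1.65 to -1.9. In the fit without neutered 5 another gene was called in its place. With the 10 males alone in the fit the difference was again -1.75 but the limma adjusted p was 0.519, and with no filter on low values it was 0.058.

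Title prefix moved with castration status among the males. The titles of intact 1, 2 and 3 begin with CHAD, those of all other males with DHSA, and nothing in the labels explains the prefixes. In the 16 tumours with DHSA titles, 3 intact males at 13.2, 21.7 and 22 FPKM were compared with the 4 castrated ones, and the difference of ENSCAFG00000003096 was -1.99 (limma adjusted p = 0.125). The number of genes at an unadjusted p under 0.05 in males was then 1123, with 0 called. The castrated males were also younger at diagnosis, 8.28 ± 2.68 against 9.62 ± 3.43 years (SD), and with age as a covariate the adjusted p of this gene was 0.00741.

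Few genes separated the males or the females completely. Castrated and intact males did not overlap for 228 of 12319 genes (1.85%), 71 with the castrated males above (0.576%) and 157 with them below (1.27%). Spayed and intact females did not overlap for 81 genes (0.658%), 47 above (0.382%) and 34 below (0.276%). With the 3 intact males of DHSA titles alone, 909 genes (7.38%) did not overlap, 375 above (3.04%) and 534 below (4.33%). Fewer tumours separate completely more often by arrangement alone, so these shares cannot be compared between sets of unlike size. The higher share with DHSA titles alone is not read as a sharper separation.

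The differences in females and in males, which rest on separate tumours, did not run together across genes. Over 12319 genes their Pearson correlation was -0.10, and 43.7% of genes had the same sign in both sexes. Of the 1243 male genes 418 (33.6%) had the same sign in females, and of the 212 female genes 81 (38.2%) had the same sign in males. The 2 lists shared 22 genes, 4 of them with the same sign. That is 1.77% of the male list, against 1.72% of all genes in the female list. It is 10.4% of the female list, against 10.1% of all genes in the male list. The overlap was thus near the share over all genes. Genes are not independent replicates, and no p is given for these values.

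**Figure D3:**
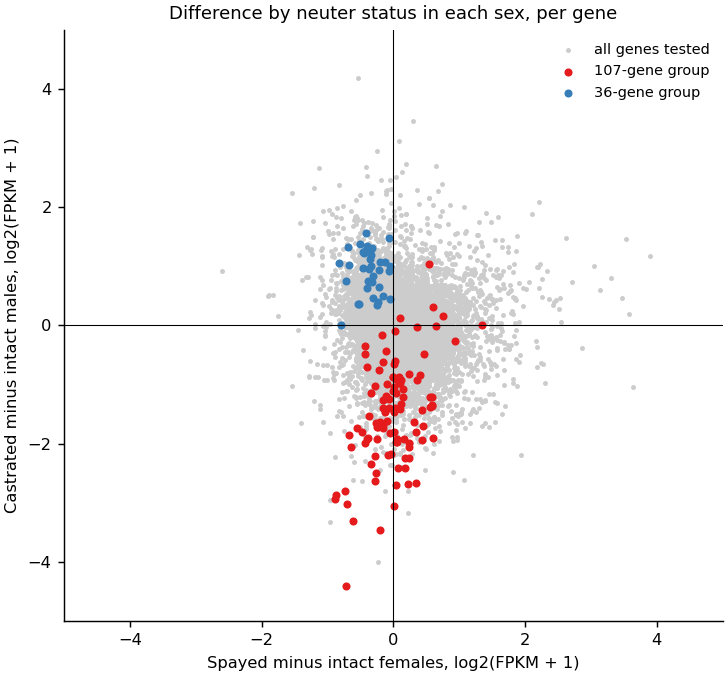
Difference by neuter status on the log2(FPKM + 1) scale in females (x axis, 7 spayed minus 3 intact) and in males (y axis, 4 castrated minus 6 intact), 1 point per gene. The 107-gene group (red) lies near 0 on the female axis and mostly below 0 on the male axis, with medians of 0.01 and -1.47.

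Groups of genes that vary together were taken from the 31 tumours outside the comparison, so the 20 tumours did not set which genes were grouped together. The 20 tumours did set which genes were eligible, through the filter on low values. There were 16 such groups of 27 to 340 genes, 1747 genes in all. With identifiers alone they are given by their size. Below are the 4 groups in which at least 20% of the genes had an unadjusted p under 0.05 in 1 direction in males, picked after these values were seen. In the other 12 groups the highest such share was 14%, and in females the highest share in any group was 6.56%. None of the genes in these groups passed limma's adjusted threshold in males, so their counts are descriptions.

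A group of 107 genes stood lower in castrated than in intact males, with 73 genes (68.2%) lower at an unadjusted p under 0.05 against 6.15% of all genes, 0 higher, and a median difference of -1.47 against -0.01 over all genes. Its level, the mean log2(FPKM + 1) of its genes, was 7.09, 5.91, 5.18, 5.89, 6.02 and 5.59 in the intact males (intact 1, 2, 3, 7, 8 and 9). In the castrated males it was 4.79, 3.89, 4.4 and 4.75 (neutered 2, 3, 5 and 10), so the males did not overlap. The group was picked by this same contrast, so that adds no support. Intact females had a mean level of 4.95 ± 0.321 and spayed females of 4.95 ± 0.725 (SD), with 0 of the 107 genes lower and 0 higher at an unadjusted p under 0.05.

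ENSCAFG00000020276 belonged to this group, and the genes of the group moved together among the 20 tumours, with a mean pairwise correlation of 0.462. The number of lower genes in males ran from 55 to 78 when each of the 20 tumours was left out in turn, and it was 65 without the CHAD titles and 72 with age as a covariate. The interaction with sex had an unadjusted p under 0.05 for 30 of the 107 genes, all with the more negative difference in males, against 3.91% of all genes. The interaction contains the male difference by which the group was picked, so this share adds no support. Over both sexes 35 genes were lower and 1 higher (32.7% and 0.935%, against 1.98% and 1.33% of all genes). That number was 15 without the CHAD titles, 18 without neutered 3 and 23 without neutered 5, and over all 32 spleen tumours, other breeds included, it was 9. The male and the pooled numbers come from the same tumours.

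A group of 53 genes was also lower in castrated males. There 24 genes (45.3%) were lower at an unadjusted p under 0.05, against 6.15% of all genes, and 1 higher, with a median difference of -0.96. Its genes moved together less closely among the 20 tumours than among the other 31, with mean pairwise correlations of 0.296 and 0.607. The level was 5.61 to 6.5 in intact males and 4.04, 5.52, 5.73 and 5.76 in castrated males, which overlapped through intact 3. Neutered 5 had the lowest level of the 20 tumours, and without it the number was 14 genes. ENSCAFG00000015798 was a member, and over both sexes 16 of the 53 genes were lower (30.2%, against 1.98% of all genes), and 5 over all 32 spleen tumours.

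The 91-gene group had 22 genes (24.2%, against 6.15% of all genes) lower and 0 higher in castrated males, with a median difference of -1.33. Levels were 3.17 to 5.03 in castrated and 3.94 to 7.26 in intact males. Its number moved with single tumours. It was 6 without neutered 5 or without the CHAD titles, 7 without intact 7, 9 without intact 2, 11 without intact 1 or neutered 10, and 48 without intact 9.

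A group of 36 genes ran the other way, with 21 genes (58.3%) higher in castrated males against 3.94% of all genes, 0 lower, and a median difference of 0.99. Its level was 4.2, 4.75, 4.6 and 4.64 in the castrated males and 3.24, 4.52, 3.84, 2.47, 3.62 and 4.09 in intact 1, 2, 3, 7, 8 and 9. The males overlapped through intact 2. In females the level was 3.96 ± 0.533 in spayed and 4.33 ± 0.718 in intact dogs (SD), and 14 of the 36 genes had an interaction with an unadjusted p under 0.05, all with the more positive difference in males, against 3.13% of all genes. Here too the interaction contains the male difference by which the group was picked, so the share adds no support. The number of higher genes in males was 10 without intact 7 or neutered 3, 13 without neutered 10 and 11 with array weights.

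**Figure D4:**
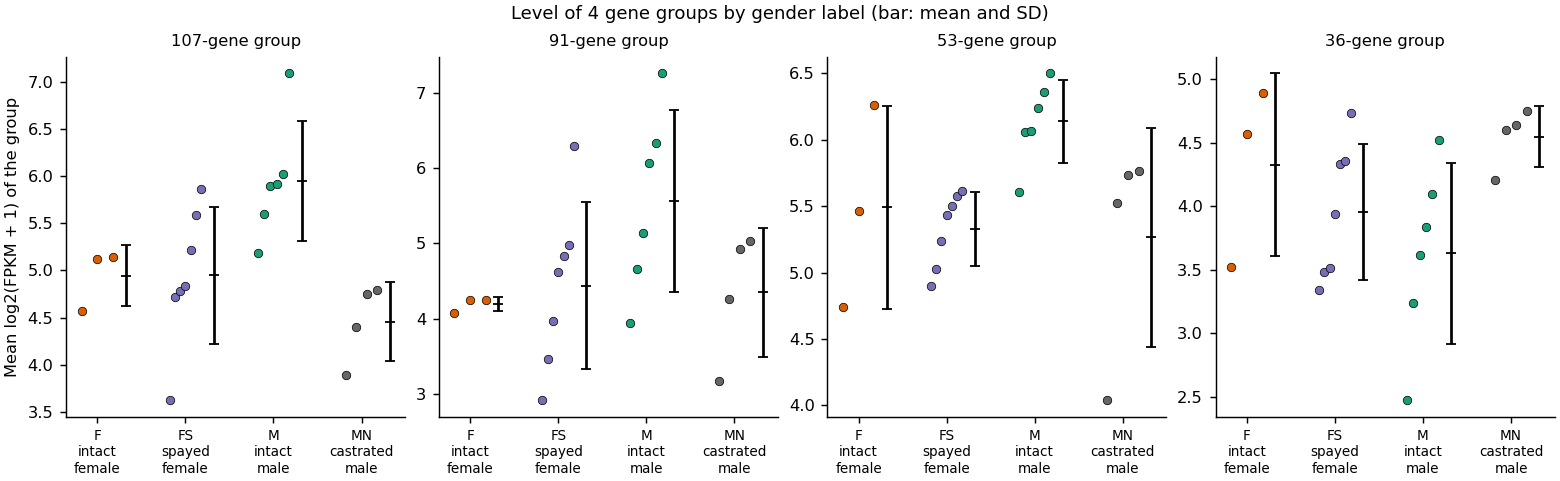
Level of 4 gene groups, the mean log2(FPKM + 1) of their genes, by gender label. The groups were picked by their difference between castrated and intact males. Points are tumours and bars the mean and SD; in the 107-gene group the intact males lie at 5.18 or above and the castrated males at 4.79 or below.

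Spleen tumours of other breeds and heart tumours of Golden Retrievers gave separate samples for a contrast of the same labels. The other-breed spleen tumours came from 9 neutered and 3 intact dogs and the hearts from 3 neutered dogs, all male, and 3 intact dogs, of which 1 was female. The intact other-breed dogs were Portuguese Water Dogs and a Briard, and none of the neutered ones was of these breeds. Neuter status and breed can thus not be told apart there. Age was 10.7 ± 1.48 years in neutered and 10.1 ± 1.1 years in intact other-breed dogs (SD). In the heart set it was 9.43 ± 1.27 and 9.47 ± 1.29 years (SD). The neuter difference differed between Golden Retrievers and other breeds for 0 of 12645 genes (0%), with an unadjusted p under 0.05 for 319 (2.52%), 152 higher (1.2%) and 167 lower (1.32%). It differed between spleen and heart for 0 of 12520 genes (0%), with an unadjusted p under 0.05 for 317 (2.53%), 172 higher (1.37%) and 145 lower (1.16%) (limma interaction terms, smallest adjusted p = 1 and 0.341). Leaving out the third intact or the second neutered other-breed dog gave 2 and 1 genes by breed, and the number at an unadjusted p under 0.05 was 661 without the former. By organ, 3 genes were called without the first neutered and 1 without the third intact heart. The intervals of these interaction terms, at the same level as for sex, had a median half-width of 0.89 by breed and 0.99 by organ. In simulated data, changes of 1 were recovered for 14% of genes by breed and 7% by organ. The 0 genes called thus do not show that the neuter difference is alike across breeds or organs.

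The direction of the 408 genes was read in both sets, beside that of all genes. Of the 399 that could be compared in other-breed spleens 55.9% had the same sign there, against 53.5% of all 11917 genes. In the hearts it was 57.5% of 374, against 51.4% of all 11355 genes.

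The 4 genes chosen by rule were tested in both sets, 8 tests in all. ENSCAFG00000018864, higher in neutered spleen tumours of Golden Retrievers, had 12.2 to 31.5 FPKM in the intact and 0.251 to 5.35 FPKM in the neutered hearts, so the hearts ran the opposite way without overlap (exact permutation p = 0.1, the smallest this size allows). In other-breed spleens ENSCAFG00000004534 had 12.4 to 25.2 FPKM in intact and 2.96 to 16.6 FPKM in neutered dogs, again the opposite direction (exact permutation p = 0.05, adjusted p = 0.4). ENSCAFG00000020276 overlapped in both sets, with medians of 215 and 249 FPKM in neutered and intact other-breed spleens and of 253 and 131 FPKM in neutered and intact hearts. Its log2 difference was -0.12 in those spleens and 0.83 in the hearts, where it ran the opposite way. ENSCAFG00000015798 had medians of 266 and 279.7 FPKM in neutered and intact other-breed spleens. In neutered and intact hearts its medians were 246 and 233 FPKM. Its log2 difference in means was -0.33 in those spleens and -0.16 in the hearts. None of the 8 exact permutation tests passed after adjustment.

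**Figure D5:**
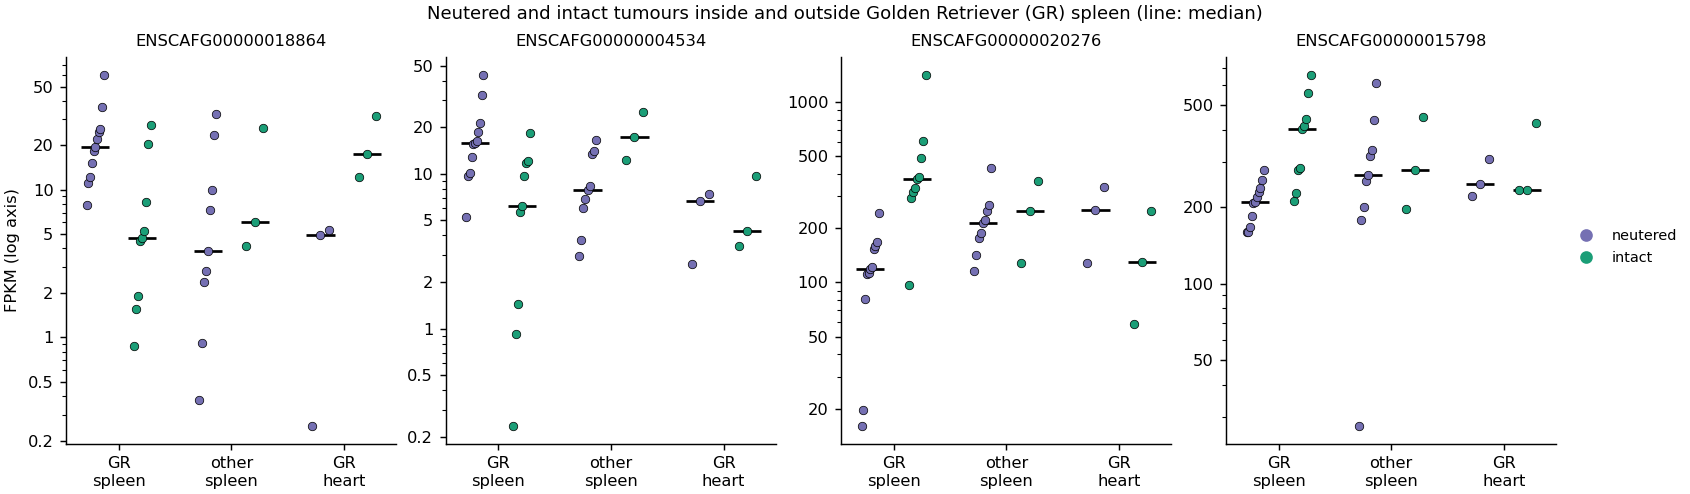
FPKM (log axes) of the 4 genes chosen by rule in neutered and intact tumours of Golden Retriever (GR) spleen (11 and 9), spleen of other breeds (9 and 3) and Golden Retriever heart (3 and 3). Points are tumours and lines medians; for ENSCAFG00000018864 the neutered tumours lie higher in the first set and lower in the hearts.

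The level of intact males outside the 20 tumours can be given as values. ENSCAFG00000003096 had 14.6 FPKM in the single intact male among other-breed spleens and 5.28 to 13.9 FPKM in the 5 castrated ones. In Golden Retriever hearts it had 5.11 and 6.61 FPKM in 2 intact males and 6.06, 13.8 and 11.6 FPKM in 3 castrated males. The difference, castrated minus intact, was -0.65 in the spleens and 0.69 in the hearts, on the log2 scale. Exact permutation tests gave two-sided p = 0.5 and 0.3 (adjusted p = 0.5 for both), and sets of these sizes cannot go below 0.167 and 0.1. The level of the 107-gene group was 4.41 in that intact male and 4.46 to 7.36 in the castrated males of other breeds. In the hearts it was 4.22 and 5.49 in intact and 3.98 to 4.61 in castrated males. Mean levels in intact and castrated males of other-breed spleens were 5.24 and 5.86 in the 53-gene group. They were 3.0 and 4.33 in the 91-gene and 4.31 and 4.01 in the 36-gene group. In the hearts they were 5.39 and 5.51, 4.53 and 5.02, and 3.35 and 3.65. The 53- and 91-gene groups thus ran opposite to Golden Retriever spleens in both sets, the 107- and 36-gene groups in other-breed spleens alone. These levels were not tested.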

How the data were processed

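RNA was measured by sequencing in 51 tumours. Column-purified total RNA went into TruSeq libraries, per the labels' protocols. The authors deposited 1 table of FPKM values. The tools FastQC 0.11.2, TopHat 1.4.1 and Cuffdiff and the build CanFam3.1 are named, per the submitters' processing notes. The sources used here do not give the annotation, strand setting, filters or scaling between libraries. Fragment counts are unknown, so no counting interval was computed. Relative depth came from the steps of 2598 low genes.

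Values were analysed as log2(FPKM + 1), which understates the change of low genes. A gene entered a test if 3 or more of the tumours in the fit reached 1 FPKM. Tests used limma 3.58.1 in R 4.3.3 (moderated variance with a trend on the mean, Benjamini-Hochberg over all genes, adjusted p under 0.05, two-sided). The pooled comparison had sex as a covariate, and females, males and their interaction came from a 4-label fit over the 20 tumours. Interactions with breed used 32 and with organ 26 tumours. Sample measures were compared by exact permutation tests (Python 3.11.15, scipy 1.17.1) and adjusted over 10 measures. Gene groups came from the 3000 most variable genes in the other 31 tumours (average linkage, correlation 0.5, at least 25 genes). Only genes that passed the filter in the 20 tumours were eligible. The fits were tested on simulated data with 100 genes changed by 1 and 100 by 2. Changes of 1 were recovered for 60% of genes in the pooled fit, 29% in males and 23% in females. For the interactions with sex, breed and organ it was 9%, 14% and 7%. Changes of 2 were recovered for 88%, 76% and 71%, and for 60%, 59% and 58% in the interactions. Genes named are the 2 higher and 2 lower with the smallest p among those with a mean of at least 5 FPKM, plus the gene called in males. The 4 gene groups described were picked after their values were seen. Cell type and hormone gene lists could not be scored without symbols. The tumours and lists were chosen with earlier results of these data known. Alternatives were other pseudocounts, filters, scalings, covariates and weights, subsets, and leaving out each tumour.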

Additional observations from a re-analysis of the deposited data

Results flagged for a closer look

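Values were checked for a single tumour standing apart from its group in 56 combinations of a measure and a group of 4 to 9 tumours, and 9 stood apart. The critical values used let chance mark about 1 in 20 groups, but the groups share tumours and the measures are related, so the 9 are not independent and no excess is read from them. Neutered 7, a spayed female, had the highest sum of FPKM among spayed females, 1057710 against at most 540272 in the others, and its 10 highest genes took 29.96% of the sum against at most 9.48%. Its level of ENSCAFG00000020276 was the lowest of the spayed females, 4.37 on the log2 scale against 6.82 in the next. Among castrated males neutered 5 had the highest share of the 10 highest genes, 7.56% against 5.39%, the highest relative depth, 1.56 against 1.01, and the lowest level of the 53-gene group, 4.04 against 5.52. Intact 6 had the highest relative depth of the intact group, 2.09 against 1.09. Intact 8 was diagnosed at 3 years, against 9.2 years in the next of the intact dogs and 10 years in the next of the intact males. The part of these tumours in the results was not tested beyond leaving each out in turn. No difference of the neuter effect between sexes, breeds or organs passed its interaction test in the fits of all tumours.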

How the results depend on the processing

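The count for neutered against intact tumours was 0 in every fit tried, and in the 20 that left out 1 tumour it ran from 0 to 0. The count for males was 0 without a filter on low values, without the CHAD titles and with males alone in the fit, and 0 to 1 when 1 tumour was left out. Leave-one-out gave 0 to 1 genes for females, 0 to 1 for the sex interaction, 0 to 2 for the breed interaction and 0 to 3 for the organ interaction. No other setting changed a count of called genes. The relative depth differed by -0.00348 (neutered minus intact) without the CHAD titles and by 0.052 with all 20. The log2 differences of the 4 genes chosen by rule kept their sign in all settings, but over all 32 spleen tumours those of ENSCAFG00000018864 and ENSCAFG00000004534 were 0.84 and 0.67. Array weights moved the number at an unadjusted p under 0.05 to 692 in females, 1527 for the sex interaction, 629 for breed and 550 for organ. Without a filter the female number was 330, and at a mean of at least 5 FPKM it was 135, with 211 for organ. For the pooled comparison it was 1020 in males alone and 249 in females alone. Depth spans a wide range and counts are unknown, so low genes cannot be graded by precision. No paired analysis was possible because replicate numbers only follow sample order.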
